A study of Mus musculus with 20 samples.

Results

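The 39 Hox genes of the mouse lie in 4 clusters, and the peaks of CTCF, MAZ and RAD21 in and around these clusters are described here for mouse embryonic stem cells (mESCs). The members were all protein-coding genes of the GENCODE vM21 basic annotation (mm10) named Hoxa, Hoxb, Hoxc or Hoxd with a number, which gave 39 of 21951 protein-coding genes: 11 in HoxA, 10 in HoxB, 9 in HoxC and 9 in HoxD. Each cluster was read with 50 kb on either side of its outermost genes. HoxA spans chr6:52155590-52260880, HoxB chr11:96194316-96368256, HoxC chr15:102921103-103036852 and HoxD chr2:74668310-74765142. A peak belonged to a cluster when its summit, the base of highest read pileup, lay in this window. Overlapping peaks were merged into sites, which gave 69 sites from 224 peaks, and each site is named by the Hox genes whose coding parts lie on either side of it.

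Hox genes encode homeodomain transcription factors that pattern the body from head to tail. Their order along the chromosome follows the order in which they are used along the body axis, with the low-numbered genes acting in the hindbrain and neck and the high-numbered genes in the trunk, limbs and tail. In embryonic stem cells the clusters are mostly silent. CTCF is a zinc finger protein that binds a long oriented motif and blocks cohesin, the ring complex that extrudes chromatin loops. RAD21 is a cohesin subunit, and its peaks mark where cohesin is held. MAZ is a zinc finger protein that binds G-rich sequence and has been studied as an insulator beside CTCF. CTCF sites between neighbouring Hox genes are known as boundaries between their active and inactive parts when stem cells turn into motor neurons.

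The sequences that carry the main patterns are given first, all from the GRCm38 (mm10) reference and read 5′ to 3′. The first set is shown because its 3 sites held RAD21 in all 4 conditions and share the letters GCGCTGTT, any base, then CTC, set in capitals, although none of them holds the letters searched as the CTCF core. That search took exact letters only. AG, any 2 bases and GGC, the end of the core with A as its sixth letter, stand at both HoxC sites across the start of the capitals. All 3 read on the plus strand.
Hoxc8|Hoxc9, chr15:102987594-102987623: cgcgaggtgGCGCTGTTGCTCaatgttaga
Hoxc10|Hoxc11, chr15:102966573-102966602: tgctaggtgGCGCTGTTACTCcacgctgag
Hoxd8|Hoxd9, chr2:74702396-74702425: cactagagaGCGCTGTTGCTCcactttctg
The second set holds the CTCF core of 4 other sites with RAD21 in all 4 conditions. The capitals mark CC, any 4 bases, G, any 2 bases and GGC, on the minus strand in HoxA and on the plus strand in HoxB and HoxD. The sixth letter is A in 3 of these and G at Hoxa5|Hoxa6.
Hoxa5|Hoxa6, chr6:52204650-52204679: gcccagtctCCAGCGGGTGGCgctcgagtc
Hoxa7|Hoxa9, chr6:52221800-52221829: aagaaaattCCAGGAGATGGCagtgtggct
Hoxb5|Hoxb6, chr11:96303236-96303265: cgtcaatcgCCGGGAGGTGGCgcgctctgc
Hoxd4|Hoxd8, chr2:74715912-74715941: gagctttgtCCAGGAGGAGGCgctgtagga
The third set holds both sites where RAD21 was called after loss of CTCF, with and without MAZ, but not in WT. Capitals mark the MAZ core GGGAGGG or its reverse complement CCCTCCC. The first stretch is the RAD21 peak of ΔCTCF/ΔMAZ upstream of Hoxc13, on the plus strand, and the second lies across the end of the first coding exon and the start of the intron of Hoxb9, centred on the RAD21 summit of ΔCTCF, also on the plus strand. Its capitals are 2 overlapping cores.
Upstream of Hoxc13, chr15:102920625-102920902: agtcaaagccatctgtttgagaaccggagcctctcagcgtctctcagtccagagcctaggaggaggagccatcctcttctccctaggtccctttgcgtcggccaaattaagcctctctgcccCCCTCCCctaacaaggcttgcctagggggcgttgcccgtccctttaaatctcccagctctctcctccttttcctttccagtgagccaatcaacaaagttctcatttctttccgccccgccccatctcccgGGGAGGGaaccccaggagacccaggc
In Hoxb9, chr11:96271935-96272135: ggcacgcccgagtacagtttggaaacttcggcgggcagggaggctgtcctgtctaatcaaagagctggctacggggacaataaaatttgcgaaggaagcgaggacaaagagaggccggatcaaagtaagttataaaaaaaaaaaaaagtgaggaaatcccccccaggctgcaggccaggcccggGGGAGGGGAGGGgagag

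The cells were E14 mESCs in which CTCF carries a degron, a tag that lets the plant hormone auxin trigger its breakdown, grown with LIF and 2i. Untreated degron cells are called WT, cells given auxin for 2 days ΔCTCF, the Maz knockout line made in the degron cells ΔMAZ, and the same line after 2 days of auxin ΔCTCF/ΔMAZ, also written below as both lost, so that all 4 groups carry the CTCF degron. All knockout libraries bear the same line name, B2, and thus stand for a single line. Chromatin immunoprecipitation and sequencing (ChIP-seq) with antibodies to CTCF, MAZ and RAD21 gave 12 peak lists, 1 per antibody and condition, out of 20 samples, and the other 8 samples were not analysed here. With 1 list per group there was no spread between replicates, so no difference below was tested, and each share carries a 95% exact (Clopper-Pearson) interval that covers counting error only. Peaks measure no expression, so the cell type could not be checked against marker genes.

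Read depth was not given in the lists. An index of depth was taken from the lowest background of each list per base of its narrowest peak, and relative to WT it was 0.632, 0.902 and 1.15 for CTCF in ΔCTCF, ΔMAZ and ΔCTCF/ΔMAZ, 2.18, 1.29 and 0.931 for RAD21, and 0.377 for MAZ in ΔCTCF. The values below are fold enrichments, the pileup at the summit over the local background with 1 added to both, so that the same pileup ratio gives a lower value at a lower depth. The MAZ antibody gave 6265 peaks in WT and 6759 in ΔCTCF, against 33 in each list of the Maz knockout, none of them in a Hox window.

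Of the 12 lists, 10 had peaks in the Hox windows. CTCF had 30 in WT, 38 in ΔMAZ, 11 in ΔCTCF and 12 in ΔCTCF/ΔMAZ. The whole CTCF lists held 26394, 26053, 2381 and 2570 peaks in this order. RAD21 had 28, 33, 28 and 13 in the Hox windows, out of 20371, 20872, 17912 and 6400, and MAZ had 16 in WT and 15 in ΔCTCF. The 11 and 12 CTCF peaks after auxin all lay inside the clusters, whereas 7 of the 30 in WT lay in the flanks. Of all WT CTCF peaks 8.83% were called in ΔCTCF, so 7 flank peaks are too few to show a difference of the flanks. Of the 69 sites, 21 were in HoxA, 22 in HoxB, 12 in HoxC and 14 in HoxD. RAD21 was called at 48 sites in at least 1 condition, CTCF at 38 and MAZ at 21, and 21 sites were called in 1 list only. The HoxD window held no summit over 99.2 kb, from the Hoxd4|Hoxd8 site past Hoxd3 and Hoxd1 to the end of the window.

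**Figure D1:**
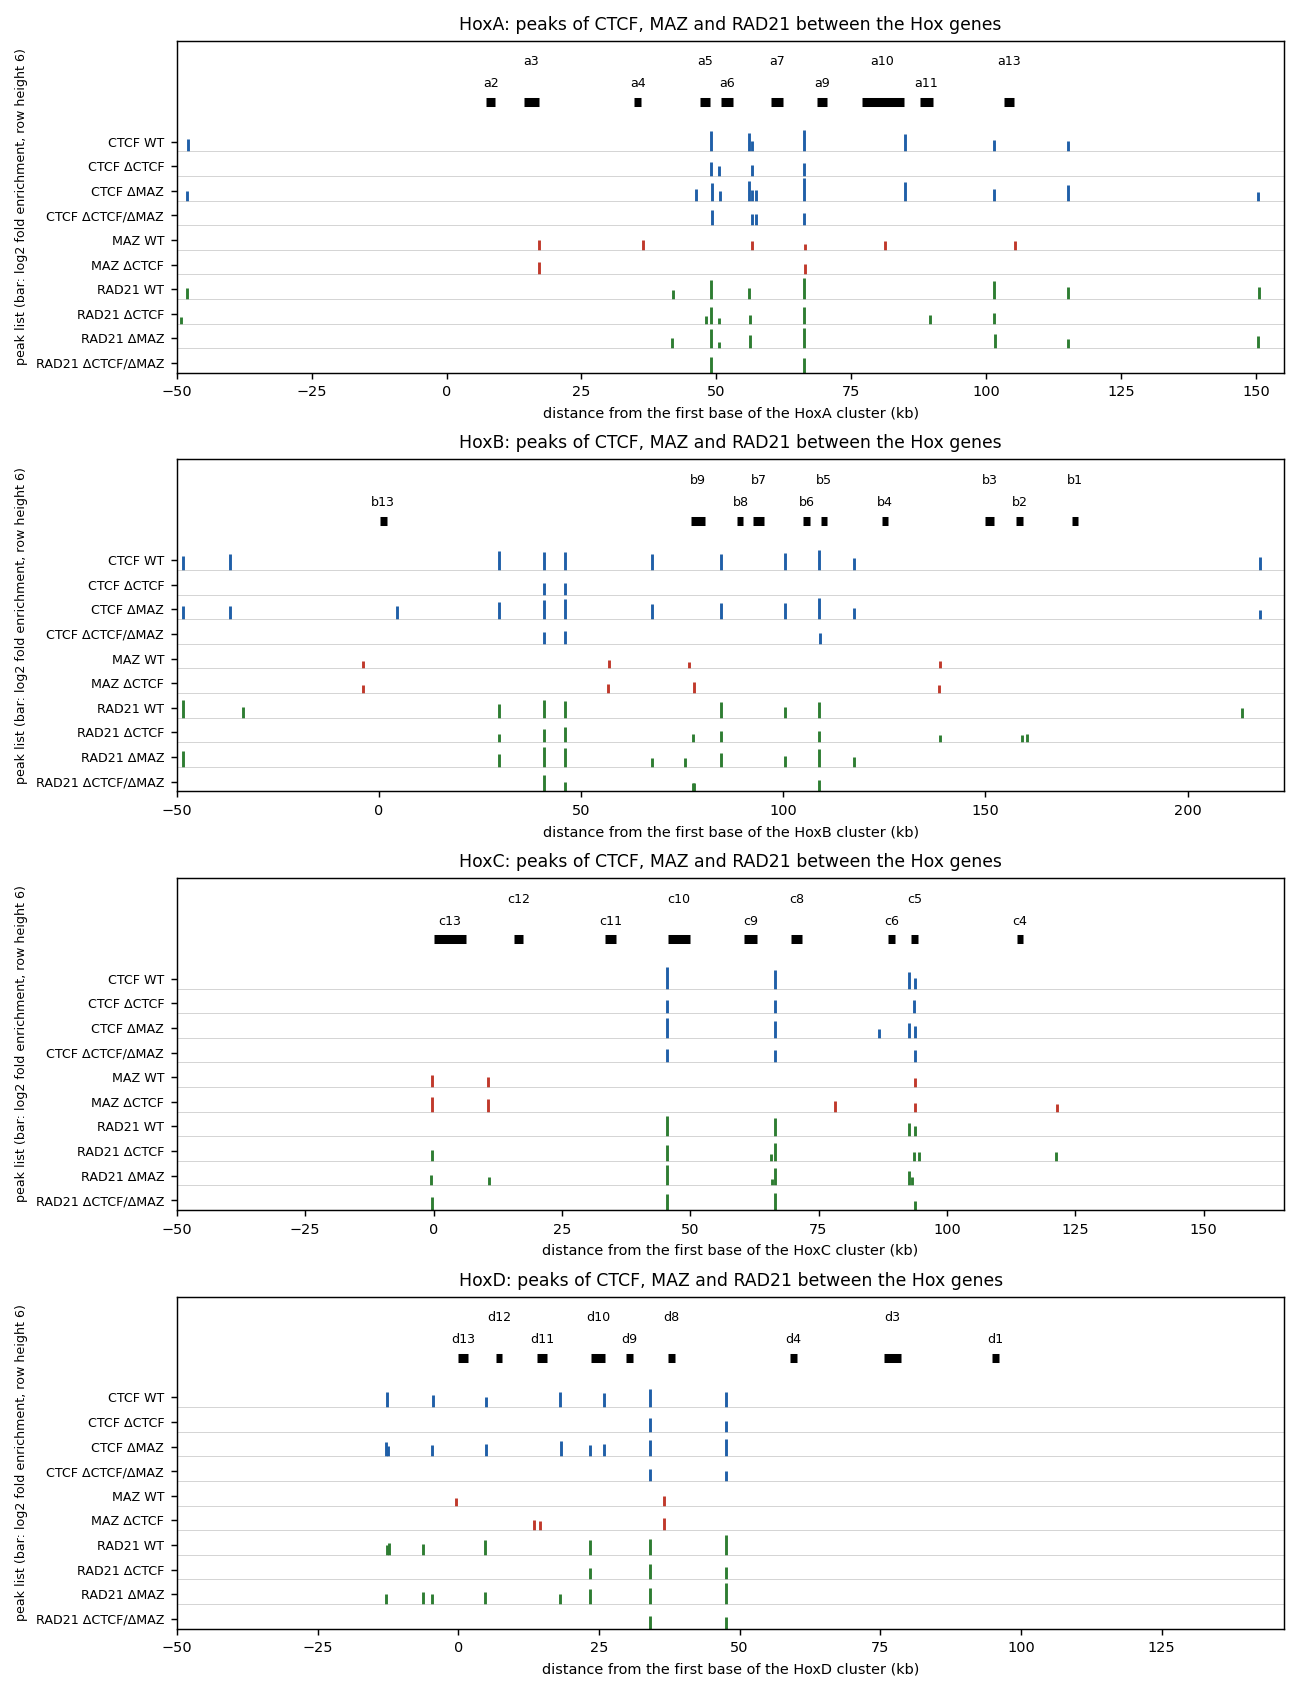
Peak summits of 10 lists along the 4 Hox windows, with distance from the first base of each cluster in kb on the x axis and 1 row per list; black boxes are the coding spans of the Hox genes and the height of each bar is the log2 fold enrichment, where the full row is 6. The 11 CTCF peaks of ΔCTCF lie inside the clusters, and the 13 RAD21 peaks of ΔCTCF/ΔMAZ lie mostly at the same places.

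At the level of the members, 35 of 39 Hox genes had a summit of at least 1 list in the gene or within 5 kb (66.7% of all protein-coding genes), and Hoxb1, Hoxb4, Hoxc11 and Hoxd1 had none. CTCF summits were near 27 Hox genes in WT (69.2%, against 46.6% of all protein-coding genes) and near 15 in ΔCTCF (38.5%, against 6.36%). In ΔMAZ 28 Hox genes had one (45.6% of all genes), and in ΔCTCF/ΔMAZ 17 (6.72% of all genes). RAD21 summits were near 25 Hox genes in WT, 27 in ΔMAZ, 29 in ΔCTCF and 19 in ΔCTCF/ΔMAZ, against 39.2%, 40.1%, 37.2% and 17.1% of all genes. MAZ summits were near 19 in WT and 16 in ΔCTCF, against 26.6% and 28.3%. Neighbouring Hox genes share peaks, so these counts are not independent, and the annotated spans of Hoxa3, Hoxc5, Hoxd3 and Hoxd4 reach across their neighbours.

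RAD21 was near 18 of the 39 Hox genes in all 4 conditions (12.4% of all protein-coding genes), among them Hoxa5, Hoxa6, Hoxa7 and Hoxa9, Hoxb5, Hoxb6 and Hoxb9, Hoxc8, Hoxc9 and Hoxc10, and Hoxd8 and Hoxd9. It was near 7 genes in ΔCTCF and not in WT (12.2% of all genes), among them Hoxa2, Hoxa10, Hoxa11, Hoxb2, Hoxb3 and Hoxc13. The reverse held for Hoxb7, Hoxd12 and Hoxd13 (14.2% of all genes). Hoxa13, Hoxb8, Hoxd10 and Hoxd11 had RAD21 in WT and in ΔCTCF but not in ΔCTCF/ΔMAZ (12.4% of all genes). Within 1 kb of the start, RAD21 summits were found at 5 Hox genes in WT (Hoxa5, Hoxb5, Hoxc5, Hoxc10 and Hoxd10) and at 9 in ΔCTCF, where Hoxa11, Hoxb9 and Hoxc13 were among those added, against 6.97% and 17.9% of all genes. Scaled to the lower depth of the WT list, the peaks at Hoxa11 and Hoxb9 fell short of its lowest −log10 p by the ratio of backgrounds but not by the depth index.

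**Figure D2:**
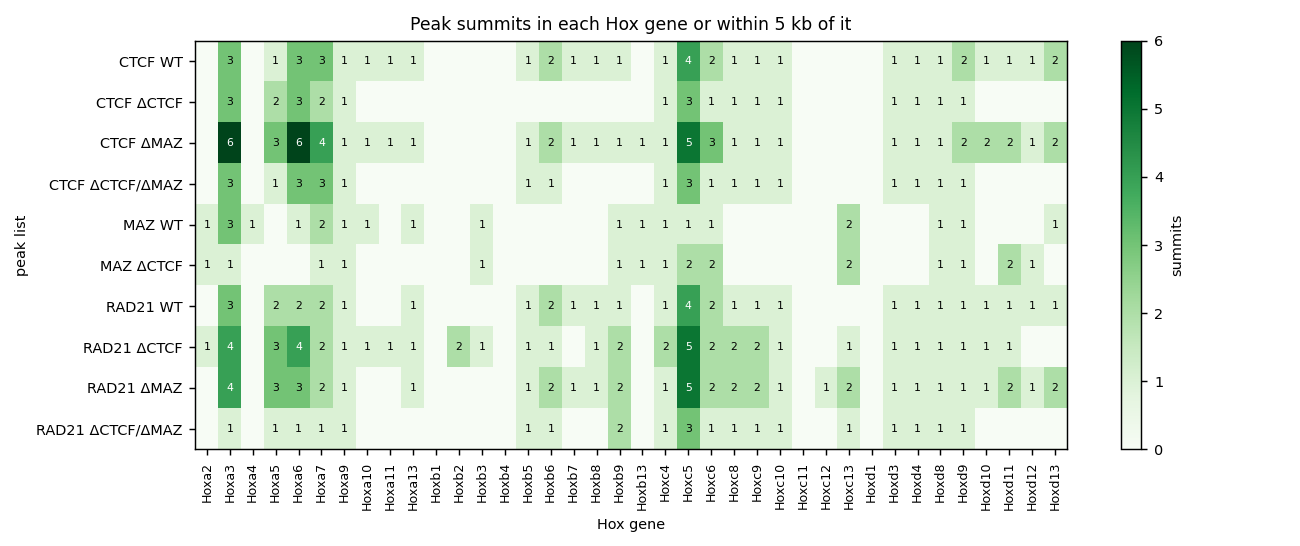
Number of peak summits in Hox genes or within 5 kb, with genes on the x axis and 10 lists on the y axis. Hoxb1, Hoxb4, Hoxc11 and Hoxd1 have no summit, and the 15 genes with CTCF in ΔCTCF lie in HoxA, HoxC and HoxD, with none in HoxB, whose CTCF peaks of ΔCTCF lie between Hoxb9 and Hoxb13.

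After auxin a larger share of the CTCF peaks was still called in the Hox windows than over the whole list. Of 30 Hox peaks in WT, 10 overlapped a peak in ΔCTCF by at least 1 bp (33.3%, interval 17.3 to 52.8), against 8.83% of all WT peaks. In the Maz knockout, 12 of 38 Hox peaks of ΔMAZ were called in ΔCTCF/ΔMAZ (31.6%, interval 17.5 to 48.7), against 9.72% of all. The lists of each pair were also cut to the same length, and so to fewer and stronger peaks. Then 3 of 5 Hox peaks (60%) against 42.5% of all were called in WT to ΔCTCF. In the knockout it was 5 of 6 (83.3%) against 51.4%. The shares of all peaks rose in both pairs, and the gap to the Hox share was smaller in the first pair and larger in the second, on few Hox peaks. Most CTCF peaks called after auxin were shared by both backgrounds, with 10 of the 11 of ΔCTCF also called in ΔCTCF/ΔMAZ (90.9%, interval 58.7 to 99.8), against 64.8% of all. Strong peaks were called again more often, and 11 of the 30 Hox peaks in WT belonged to the strongest 20% of their list. Among those strongest peaks, 7 of 11 Hox peaks were called in ΔCTCF, against 31.3% of all. Of the 20 Hox peaks that were not called, all 20 would have reached the lowest −log10 p of the ΔCTCF list at its depth, and 15 would have reached the lower 5% point of that list.

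CTCF and RAD21 shared most of their Hox sites in WT. Of 28 Hox RAD21 peaks in WT, 21 overlapped a CTCF peak (75%, interval 55.1 to 89.3), against 86% of all RAD21 peaks. In ΔCTCF, 15 of the 28 WT peaks were still called (53.6%, interval 33.9 to 72.5), against 38.9% of all. Of the 28 RAD21 peaks in ΔCTCF, 10 overlapped a residual CTCF peak (35.7%, interval 18.6 to 55.9), against 11.9% of all, and 6 overlapped a MAZ peak (21.4%, interval 8.30 to 40.95), again against 11.9%. The count with MAZ rested on partial overlaps: when each peak had to cover 50% of the other, 1 of 28 did (3.57%), against 7.25% of all. In WT, 2 of the 28 RAD21 peaks overlapped a MAZ peak, against 2.59%, and in ΔMAZ 26 of 33 overlapped a CTCF peak (78.8%, interval 61.1 to 91.02), against 83.3%. Of the 13 RAD21 peaks in ΔCTCF/ΔMAZ, 10 overlapped a CTCF peak of that condition (76.9%, interval 46.2 to 94.96), against 31.5% of all. The share that lay at MAZ peaks of ΔCTCF, in cells without MAZ, was 4 of 13 (30.8%, interval 9.09 to 61.4), against 10% of all. Where CTCF peaks remained after auxin, RAD21 held with residual CTCF and RAD21 held without it cannot be told apart.

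**Figure D3:**
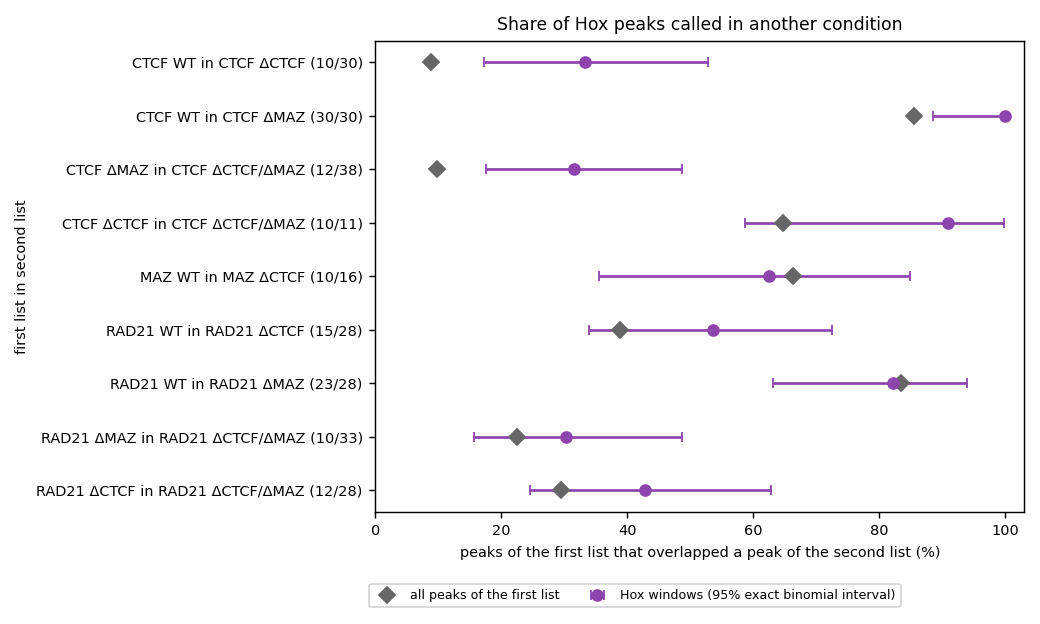
Share of the peaks of a first list that overlapped a peak of a second list, in percent, for 9 pairs of lists. Purple points are Hox peaks with 95% exact binomial intervals and grey diamonds all peaks of the first list; for CTCF the Hox interval lies above the grey diamond in WT to ΔCTCF (33.3% against 8.83%) and in ΔMAZ to ΔCTCF/ΔMAZ (31.6% against 9.72%).

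RAD21 was called in all 4 conditions at 9 sites, which hold 9 of the 28 WT peaks (32.1%, interval 15.9 to 52.4), against 20.1% of all. They were 2 in HoxA, 3 in HoxB, 2 in HoxC and 2 in HoxD. At all 9 sites CTCF was called in WT and in ΔMAZ, and at all 9 it was also called after auxin in at least 1 of both backgrounds. At Hoxc8|Hoxc9 (chr15:102987324-102987879, 3042 bp upstream of the Hoxc8 start, in the annotated span of Hoxc5 but in no transcript of the basic set), between genes used in the trunk, RAD21 stood at 24.1 in WT, 25.1 in ΔCTCF, 23.7 in ΔMAZ and 19.7 with both lost. It was the 1 Hox site of the 15 shared sites where RAD21 was higher in ΔCTCF than in WT, and its log2 ratio of 0.06 lay at the 90.9th percentile of all 7919 shared RAD21 peaks, whose median was -1.01. The pileups were 56 fragments (exact Poisson interval 42.3 to 72.7) in WT and 108 fragments (exact Poisson interval 88.6 to 130) in ΔCTCF, in a list with 2.18 times the depth index. CTCF at the same site was lower after auxin, and stood at 26.2 in WT, 10.2 in ΔCTCF, 21.2 in ΔMAZ and 9.88 with both lost.

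At the matching interval of HoxD, Hoxd8|Hoxd9 (chr2:74702202-74702606, intergenic, 2197 bp upstream of the Hoxd8 start), RAD21 stood at 17.9 in WT, 16.7 in ΔCTCF, 16.7 in ΔMAZ and 9.13 with both lost. The step from WT to ΔCTCF was again small (log2 ratio -0.10, 86.8th percentile). CTCF there stood at 27.0 in WT, 10.7 in ΔCTCF, 19.0 in ΔMAZ and 8.81 with both lost. The third site with the shared letters, Hoxc10|Hoxc11 (chr15:102966313-102966850, intergenic, 230 bp upstream of the Hoxc10 start), had RAD21 at 39.1 in WT, 17.9 in ΔCTCF, 39.8 in ΔMAZ and 17.4 with both lost, a log2 ratio of -1.13 from WT to ΔCTCF at the 44.3rd percentile of all shared peaks. Its CTCF peak, at 43.9 in WT, 11.1 in ΔCTCF, 32.5 in ΔMAZ and 10.7 with both lost, ranked 178 of 26394 in WT.

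In HoxA, the Hoxa5|Hoxa6 site (chr6:52204410-52204924, 90 bp upstream of the Hoxa5 start) had RAD21 at 27.0 in WT, 18.3 in ΔCTCF, 29.9 in ΔMAZ and 16.5 with both lost. CTCF stood at 35.7 in WT, 12.3 in ΔCTCF, 23.4 in ΔMAZ and 14.6 with both lost. The Hoxa7|Hoxa9 site (chr6:52221459-52222334, at the edge of the annotated span of Hoxa7, but 3117 bp upstream of the nearest start of its basic transcripts) had RAD21 at 38.8 in WT, 18.3 in ΔCTCF, 36.7 in ΔMAZ and 14.9 with both lost and CTCF at 41.7 in WT, 9.62 in ΔCTCF, 54.0 in ΔMAZ and 9.43 with both lost. Its CTCF peak in ΔMAZ, the strongest of the Hox windows, ranked 70 of 26053. It was also the 1 site of the 9 with a MAZ peak, at 2.72 in WT and 6.31 in ΔCTCF. Both HoxA sites lie in the middle of the cluster, on either side of Hoxa6 and Hoxa7.

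In HoxD, the Hoxd4|Hoxd8 site (chr2:74715757-74716271, in an intron of the long Hoxd3 transcript) had RAD21 at 36.4 in WT, 9.15 in ΔCTCF, 41.8 in ΔMAZ and 7.79 with both lost, and the log2 ratio from WT to ΔCTCF was -1.99, the lowest of the 9 sites. CTCF there was weaker, at 13.8 in WT, 6.66 in ΔCTCF, 22.6 in ΔMAZ and 5.95 with both lost. In HoxB, the pair of sites in the long interval between Hoxb9 and Hoxb13 had RAD21 at 24.4 in WT, 10.1 in ΔCTCF, 33.3 in ΔMAZ and 17.1 with both lost for the one farther from Hoxb9 (chr11:96234865-96235324) and at 20.4 in WT, 14.5 in ΔCTCF, 27.4 in ΔMAZ and 5.04 with both lost for the nearer (chr11:96240206-96240665). The 2 sites moved in opposite ways from ΔCTCF to ΔCTCF/ΔMAZ: the log2 ratio was 0.76 at the farther site (97.3rd percentile of all shared peaks) and -1.53 at the nearer (0.21st percentile), where the pileup was 10 fragments in ΔCTCF/ΔMAZ. CTCF at the 2 sites stood close together, at 26.7 in WT, 7.61 in ΔCTCF, 29.1 in ΔMAZ and 8.84 with both lost and at 24.0 in WT, 7.41 in ΔCTCF, 35.3 in ΔMAZ and 9.42 with both lost. The Hoxb5|Hoxb6 site (chr11:96303062-96303427, 269 bp upstream of the Hoxb5 start) had RAD21 at 17.0 in WT, 7.62 in ΔCTCF, 25.5 in ΔMAZ and 7.78 with both lost and CTCF at 33.3 in WT, 42.9 in ΔMAZ and 6.91 with both lost, with no CTCF call in ΔCTCF.

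**Figure D4:**
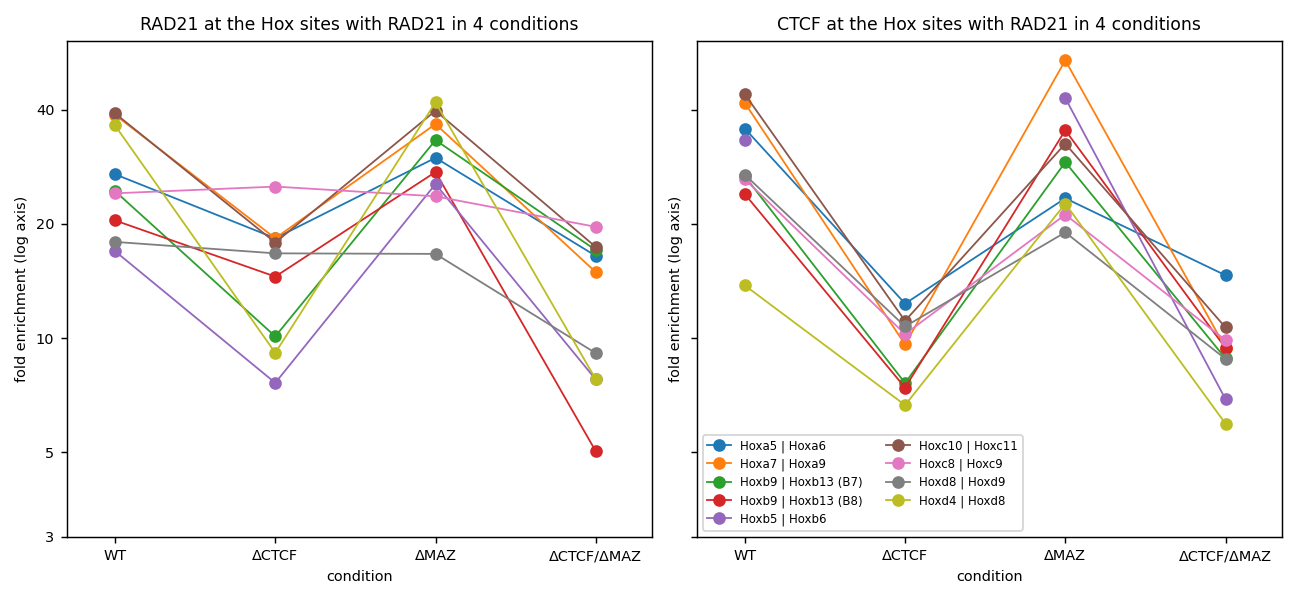
Fold enrichment of RAD21 (left) and CTCF (right) at the 9 Hox sites with a RAD21 peak in all 4 conditions, on a log axis, with condition on the x axis and lines joining the values of 1 site; of the pair between Hoxb9 and Hoxb13, B7 is the site farther from Hoxb9 and B8 the nearer. RAD21 at Hoxc8|Hoxc9 stays between 19.7 and 25.1, whereas at Hoxd4|Hoxd8 it goes from 36.4 in WT to 9.15 in ΔCTCF; CTCF is lower after auxin at every site where it was called.

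At 5 further sites (5 of 28 WT peaks, against 16.5% of all) RAD21 was called in WT, ΔCTCF and ΔMAZ but not in ΔCTCF/ΔMAZ. At Hoxa6|Hoxa7, near the start of the long Hoxa3 transcript (chr6:52211390-52211923), RAD21 stood at 6.57 in WT, 4.75 in ΔCTCF and 11.2 in ΔMAZ and CTCF at 24.6 in WT and 32.6 in ΔMAZ. At Hoxa11|Hoxa13 (chr6:52256945-52257338) RAD21 stood at 23.2 in WT, 6.86 in ΔCTCF and 12.2 in ΔMAZ and CTCF at 7.30 in WT and 7.86 in ΔMAZ. From WT to ΔMAZ, RAD21 was higher at the first of these sites and lower at the second. Of the sites with RAD21 between Hoxb9 and Hoxb13, the one nearest to Hoxb13 (chr11:96223809-96224362) had RAD21 at 10.5 in WT, 4.01 in ΔCTCF and 9.33 in ΔMAZ and CTCF at 30.9 in WT and 20.5 in ΔMAZ. Hoxb8|Hoxb9 (chr11:96278776-96279172) had RAD21 at 14.98 in WT, 7.48 in ΔCTCF and 11.1 in ΔMAZ and CTCF at 16.7 in WT and 18.1 in ΔMAZ. Hoxd10|Hoxd11 (chr2:74691602-74691961, 144 bp upstream of the Hoxd10 start) had RAD21 at 13.04 in WT, 6.91 in ΔCTCF and 13.51 in ΔMAZ and CTCF at 7.62 in ΔMAZ. RAD21 was lower in ΔCTCF than in WT at all 5 sites, and CTCF was called at them only without auxin. At the depth of the ΔCTCF/ΔMAZ list the ΔCTCF peaks of Hoxb8|Hoxb9, Hoxd10|Hoxd11 and Hoxa11|Hoxa13 would have passed its lower 5% point, whereas that of Hoxa6|Hoxa7 would have passed only its lowest −log10 p and that of the site nearest to Hoxb13 neither.

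RAD21 was called in WT and not in ΔCTCF at 13 sites. Their median distance from the nearest Hox start was 12381 bp, against 2951 bp at the 15 sites called in both, and 3 of the 13 against 12 of the 15 lay within 5 kb of a Hox start. Measured to the nearest start of any protein-coding gene, 6 of the 13 and 12 of the 15 lay within 5 kb, against 18.03% and 22.2% of all WT RAD21 peaks not called and called in ΔCTCF. The windows were drawn around Hox genes, so the Hox shares and those of all peaks are not a like comparison. All 13 would have passed the lower 5% point of the ΔCTCF list at its depth. CTCF was called at 9 of the 13 without auxin and at none of them after it, and MAZ at none. In WT itself 7 of the 13 RAD21 peaks overlapped a CTCF peak (53.8%), against 83.9% of all WT RAD21 peaks not called in ΔCTCF, and 1.04% of those overlapped a MAZ peak. The strongest was a flank site of HoxB in an intron of Ttll6 (chr11:96145630-96146034), where RAD21 stood at 22.8 in WT and 17.98 in ΔMAZ and CTCF at 13.1 in WT and 10.9 in ΔMAZ.

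Of these 13, 9 were called in WT and in ΔMAZ (9 of 28 WT peaks, against 45.8% of all). In HoxA they were Hoxa4|Hoxa5 (chr6:52197290-52197556, RAD21 at 5.12 in WT and 5.82 in ΔMAZ, no CTCF) and 2 sites outside Hoxa13, the nearer (chr6:52270558-52270887) with RAD21 at 9.12 in WT and 5.50 in ΔMAZ and CTCF at 6.66 in WT and 15.8 in ΔMAZ, and the farther (chr6:52305944-52306237), next to Evx1, with RAD21 at 8.26 in WT and 8.88 in ΔMAZ and CTCF at 4.85 in ΔMAZ. Hoxb6|Hoxb7 (chr11:96294522-96294887, in an intron of Hoxb6) had RAD21 at 7.09 in WT and 6.64 in ΔMAZ and CTCF at 19.5 in WT and 19.0 in ΔMAZ. Hoxc5|Hoxc6 (chr15:103013519-103013851, 116 bp upstream of the Hoxc5 start) had RAD21 at 10.1 in WT and 11.9 in ΔMAZ and CTCF at 19.97 in WT and 14.2 in ΔMAZ. Hoxa4|Hoxa5, Hoxb6|Hoxb7 and Hoxc5|Hoxc6 lie in the middle of the clusters. The 2 sites outside Hoxa13 lie 9799 and 45191 bp upstream of its start, and the Ttll6 intron site of HoxB given above also belongs to the 9 sites. In HoxD they lay at the Hoxd13 edge: the Evx2 site (chr2:74655405-74655723, RAD21 at 5.65 in WT and 5.41 in ΔMAZ, CTCF at 15.3 in WT and 13.8 in ΔMAZ), the site between Evx2 and Hoxd13 (chr2:74661835-74662127, RAD21 at 6.54 in WT and 8.20 in ΔMAZ, no CTCF) and Hoxd12|Hoxd13 (chr2:74673003-74673319, RAD21 at 13.2 in WT and 7.89 in ΔMAZ, CTCF at 6.37 in WT and 8.77 in ΔMAZ). Evx1 and Evx2 are even-skipped homeobox genes that flank HoxA and HoxD.

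The remaining 4 were called in WT alone (4 of 28, against 14.1% of all). They were a flank site of HoxA (chr6:52107413-52107704, in an intron of the noncoding Halr1, RAD21 at 7.27 in WT, CTCF at 9.71 in WT and 5.98 in ΔMAZ), a second Ttll6 intron site (chr11:96160549-96160755, RAD21 at 6.30 in WT), a site 42118 bp downstream of the Hoxb1 start (chr11:96407779-96407974, RAD21 at 5.90 in WT) and a coding exon of Evx2 (chr2:74655779-74656067, RAD21 at 8.69 in WT, CTCF at 6.23 in ΔMAZ). All 4 lay in the flanks of HoxA, HoxB and HoxD. In ΔMAZ these were 4 of the 5 WT RAD21 peaks that were not called, the other being that in the intron of Hoxc5.

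RAD21 was called in ΔCTCF and not in WT at 13 sites, with 13 of the 28 Hox peaks of ΔCTCF (46.4%, interval 27.5 to 66.1), against 55.9% of the whole list. Their median distance from a Hox start was 1704 bp, and 10 of the 13 lay within 5 kb (76.9%, interval 46.2 to 94.96), where 40.4% of all such ΔCTCF peaks lay within 5 kb of a protein-coding start. The windows were drawn around Hox genes, so this nearness was partly set by their choice. Of the Hox RAD21 peaks called in both WT and ΔCTCF, 12 of 15 lay within 5 kb of a protein-coding start, against 22.2% of all. MAZ was called in ΔCTCF at 5 of the 13 sites without a WT call, and CTCF at 1. By direct overlap 4 of the 13 RAD21 peaks met a MAZ peak, against 17.7% of all such peaks. They were weak: fold enrichment ran from 2.85 to 7.09. At the depth of the WT list, 5 of the 13 would have reached its lowest −log10 p and 1, upstream of Hoxc13, its lower 5% point, where a peak had to pass when scaled both by the depth index and by the ratio of backgrounds. By the depth index alone 8 of the 13 would have reached the lowest −log10 p.

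Upstream of Hoxc13, the gene at the posterior end of HoxC (chr15:102920582-102921039, 288 bp upstream of the Hoxc13 start, intergenic), MAZ stood at 8.38 in WT and 14.3 in ΔCTCF, the highest MAZ values of the Hox windows, and no CTCF peak was called in any list. RAD21 stood at 7.09 in ΔCTCF, 6.15 in ΔMAZ and 10.5 with both lost. Its pileups were 29 fragments (exact Poisson interval 19.4 to 41.6) in ΔCTCF and 22 fragments (exact Poisson interval 13.8 to 33.3) in ΔCTCF/ΔMAZ. Of the 10 Hox sites shared by ΔMAZ and ΔCTCF/ΔMAZ, it was the 1 where RAD21 was higher in ΔCTCF/ΔMAZ than in ΔMAZ, with a log2 ratio of 0.77 at the 99.6th percentile of 4679 shared peaks, although MAZ itself had no peak in the knockout. In Hoxb9 (chr11:96271547-96272684), the site of the overlapping cores printed above, which lie over 50 bp from the MAZ summit, MAZ stood at 6.58 in ΔCTCF and RAD21 at 4.19 in ΔCTCF and 4.58 with both lost, with 22 fragments in ΔCTCF and 9 in ΔCTCF/ΔMAZ, where 2 separate peaks were called.

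At the other sites with MAZ, RAD21 appeared in ΔCTCF alone. In an intron of Hoxb3 (chr11:96332700-96333177), RAD21 stood at 3.81 in ΔCTCF and MAZ at 3.89 in WT and 3.96 in ΔCTCF. Outside Hoxc4 (chr15:103042251-103042758, 8009 bp downstream of the Hoxc4 start), RAD21 stood at 5.13 in ΔCTCF and MAZ at 3.99 in ΔCTCF.

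The other 8 sites had no MAZ peak. In HoxA, RAD21 stood at 3.21 in ΔCTCF in the flank with Halr1 (chr6:52106234-52106530), at 3.61 in ΔCTCF in an intron of Hoxa5 (chr6:52203584-52203806), at 2.85 in ΔCTCF and 3.01 in ΔMAZ at Hoxa5|Hoxa6 (chr6:52206060-52206280) and at 4.41 in ΔCTCF in a coding exon of Hoxa11 (chr6:52244979-52245315). In HoxB it stood at 3.80 in ΔCTCF in a coding exon of Hoxb2 (chr11:96353240-96353653) and at 4.53 in ΔCTCF at Hoxb1|Hoxb2 (chr11:96354417-96354803). In HoxC it stood at 3.37 in ΔCTCF and 3.11 in ΔMAZ at Hoxc8|Hoxc9, beside the strong site (chr15:102986817-102987280), and at 4.43 in ΔCTCF at the 3′ end of Hoxc5 (chr15:103015639-103015890). No site of this kind lay in HoxD. Hoxb1 is the most anterior gene of its cluster and is known to respond early to retinoic acid. Of the 8, CTCF was called at Hoxa5|Hoxa6 alone, at 6.44 in ΔCTCF and 5.11 in ΔMAZ.

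RAD21 in the Maz knockout was called at most of the same Hox sites as in WT. Of the 28 WT Hox peaks, 23 were called in ΔMAZ (82.1%, interval 63.1 to 93.9), against 83.5% of all. The median log2 ratio at these 23 was 0.02, and 12 of them were higher in ΔMAZ. The lowest was Hoxa11|Hoxa13 (log2 ratio -0.93, 2.00th percentile), from 23.2 to 12.2, and the highest Hoxa6|Hoxa7 (0.77, 95.6th percentile), from 6.57 to 11.2. For CTCF all 30 Hox peaks of WT were called in ΔMAZ (interval 88.4 to 100), against 85.5% of all.

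At 10 sites RAD21 was called in ΔMAZ and not in WT, with fold enrichments of 3.01 to 6.15, which is 10 of 33 Hox peaks (30.3%, interval 15.6 to 48.7) against 18.5% of the whole list. At 4 of them CTCF was called in WT and in ΔMAZ: Hoxb9|Hoxb13 (chr11:96261552-96261937, RAD21 at 4.66 in ΔMAZ, CTCF at 16.0 in WT and 14.7 in ΔMAZ), Hoxb4|Hoxb5 (chr11:96311602-96311894, RAD21 at 5.19 in ΔMAZ, CTCF at 7.85 in WT and 7.14 in ΔMAZ), the site 4488 bp upstream of the Hoxd13 start (chr2:74663634-74663940, RAD21 at 5.47 in ΔMAZ, CTCF at 8.09 in WT and 7.14 in ΔMAZ) and Hoxd10|Hoxd11 (chr2:74686323-74686636, RAD21 at 6.13 in ΔMAZ, CTCF at 14.9 in WT and 14.2 in ΔMAZ). Without CTCF stood the site upstream of Hoxb9 (chr11:96269995-96270175, RAD21 at 5.05 in ΔMAZ), that in the coding exon of Hoxc5 (chr15:103014294-103014554, 4.61 in ΔMAZ) and Hoxc12|Hoxc13 (chr15:102931525-102932203, 4.04 in ΔMAZ), which had MAZ at 6.25 in WT and 9.24 in ΔCTCF. The other 3 of the 10 are the sites upstream of Hoxc13, at Hoxa5|Hoxa6 and at Hoxc8|Hoxc9 given above. At the depth of the WT list, 8 of the 10 would have reached its lowest −log10 p and 3 its lower 5% point.

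After auxin the Maz knockout had 13 RAD21 peaks in the Hox windows against 28 in the cells with MAZ, and the whole lists held 6400 against 17912. Of 33 Hox peaks of ΔMAZ, 10 were called in ΔCTCF/ΔMAZ (30.3%, interval 15.6 to 48.7), against 22.4% of all, and of the 23 that were not called, 20 would have reached the lowest −log10 p of the ΔCTCF/ΔMAZ list at its depth and 17 its lower 5% point. Of the 28 Hox peaks of ΔCTCF, 12 were (42.9%, interval 24.5 to 62.8), against 29.5% of all. The list of ΔCTCF/ΔMAZ was shallower than that of ΔCTCF: of the 16 ΔCTCF peaks that were not called, 6 would have reached its lowest −log10 p at its depth and 3 its lower 5% point. For 8 of the other 10, which passed under neither scaling, the difference between ΔCTCF and ΔCTCF/ΔMAZ cannot be told apart from the difference in depth, and for 2, those at Hoxa11 and at the 3′ end of Hoxc5, the depth index and the ratio of backgrounds gave different answers. At the 12 shared sites the median log2 ratio from ΔCTCF to ΔCTCF/ΔMAZ was -0.10, and 5 were higher in ΔCTCF/ΔMAZ. From ΔMAZ to ΔCTCF/ΔMAZ it was -1.08 at 10 shared sites, against -1.20 at all 4679.

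Most MAZ peaks overlapped no CTCF peak, in the Hox windows as over the whole list. Of the 16 Hox MAZ peaks in WT, 3 overlapped a CTCF peak, against 7.68% of all, and 2 a RAD21 peak, against 8.32%. In ΔCTCF, 6 of 15 overlapped a RAD21 peak, against 31.3%. Of the 16 in WT, 10 were called in ΔCTCF (62.5%, interval 35.4 to 84.8), against 66.3% of all, and 9 of the 10 had a higher fold enrichment there, with a median log2 ratio of 0.47 against 0.28 for all. When both lists were limited to −log10 q values of 5 or more, 4 of 11 were called again (36.4%), against 62.8% of all. Summits within 1 kb of a start were found at 8 Hox genes in WT, against 21% of all protein-coding genes, among them Hoxa3, Hoxa4, Hoxa13, Hoxb9, Hoxc13, Hoxd8 and Hoxd13. The 10 sites called in both conditions included, besides those given above, Hoxa3|Hoxa4 (chr6:52172512-52172952, 6.14 in WT and 8.51 in ΔCTCF), Hoxd8|Hoxd9 at the start of Hoxd8 (chr2:74704714-74705303, 13 bp downstream of the Hoxd8 start, 5.69 in WT and 8.54 in ΔCTCF), the site upstream of Hoxb13 (chr11:96190159-96190527, 3.84 in WT and 3.99 in ΔCTCF) and 1 between Hoxb9 and Hoxb13 (chr11:96250956-96251229, 4.42 in WT and 4.82 in ΔCTCF). None of these 4 held CTCF or RAD21.

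Sites called for MAZ in WT alone were Hoxa4|Hoxa5, just upstream of Hoxa4 (chr6:52191844-52192052, 5.52), Hoxa6|Hoxa7 (chr6:52212072-52212288, 4.83), Hoxa10 (chr6:52236666-52236921, in an intron, 4.64), the start of Hoxa13 (chr6:52260678-52260944, 4.50), the promoter of Hoxb9 (chr11:96270871-96271144, 3.28) and the promoter of Hoxd13 (chr2:74667815-74668014, 3.68). At the lower depth of the ΔCTCF list, 3 of these 6 would have reached its lowest −log10 p under both scalings, 4 by the ratio of backgrounds alone, and none its lower 5% point under both. Sites called in ΔCTCF alone, besides Hoxb9 and the site outside Hoxc4, were Hoxc6|Hoxc8 (chr15:102999218-102999574, 6.16), the promoter of Hoxd11 (chr2:74681745-74682198, 6.19) and its coding exon (chr2:74682712-74682963, 5.42). Hoxa13, Hoxd11 and Hoxd13 are genes of the posterior end that pattern limbs and the genital tubercle.

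Both Hox sites where CTCF and MAZ peaks coincided, other than Hoxa7|Hoxa9, had CTCF that was not lower after auxin. In the intron of Hoxc5 (chr15:103014692-103015105), CTCF stood at 6.58 in WT, 10.3 in ΔCTCF, 7.53 in ΔMAZ and 9.29 with both lost, and the log2 ratio from WT to ΔCTCF of 0.64 lay at the 99.6th percentile of 2331 shared CTCF peaks. MAZ stood there at 4.77 in WT and 4.54 in ΔCTCF and RAD21 at 6.39 in WT, 5.10 in ΔCTCF and 5.25 with both lost. At Hoxa6|Hoxa7 (chr6:52212072-52212288), CTCF stood at 6.57 in WT, 6.81 in ΔCTCF, 6.27 in ΔMAZ and 7.24 with both lost (log2 ratio 0.05, 97.9th percentile) with no RAD21. The pileups were small, with 9 fragments (exact Poisson interval 4.12 to 17.1) in WT and 13 fragments (exact Poisson interval 6.92 to 22.2) in ΔCTCF at Hoxc5, and these intervals overlap. A neighbouring site of Hoxa6|Hoxa7 (chr6:52212759-52212976) had CTCF in the Maz knockout only, at 6.59 in ΔMAZ and 7.34 with both lost.

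CTCF stood alone at 8 sites: those at Hoxa10|Hoxa11, at Hoxa4|Hoxa5 and at Hoxa6|Hoxa7, the flank sites in Ttll6 and beyond Hoxb1, a site downstream of Hoxb13, Hoxc6|Hoxc8 and the coding exon of Hoxd10. Their fold enrichments ran from 4.72 to 25.4, none was called in ΔCTCF, and 1, at Hoxa6|Hoxa7, was called in ΔCTCF/ΔMAZ. The Hoxa10|Hoxa11 site, in the 5′ part of Hoxa10, was the strongest, at 23.1 in WT and 25.4 in ΔMAZ.

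**Figure D5:**
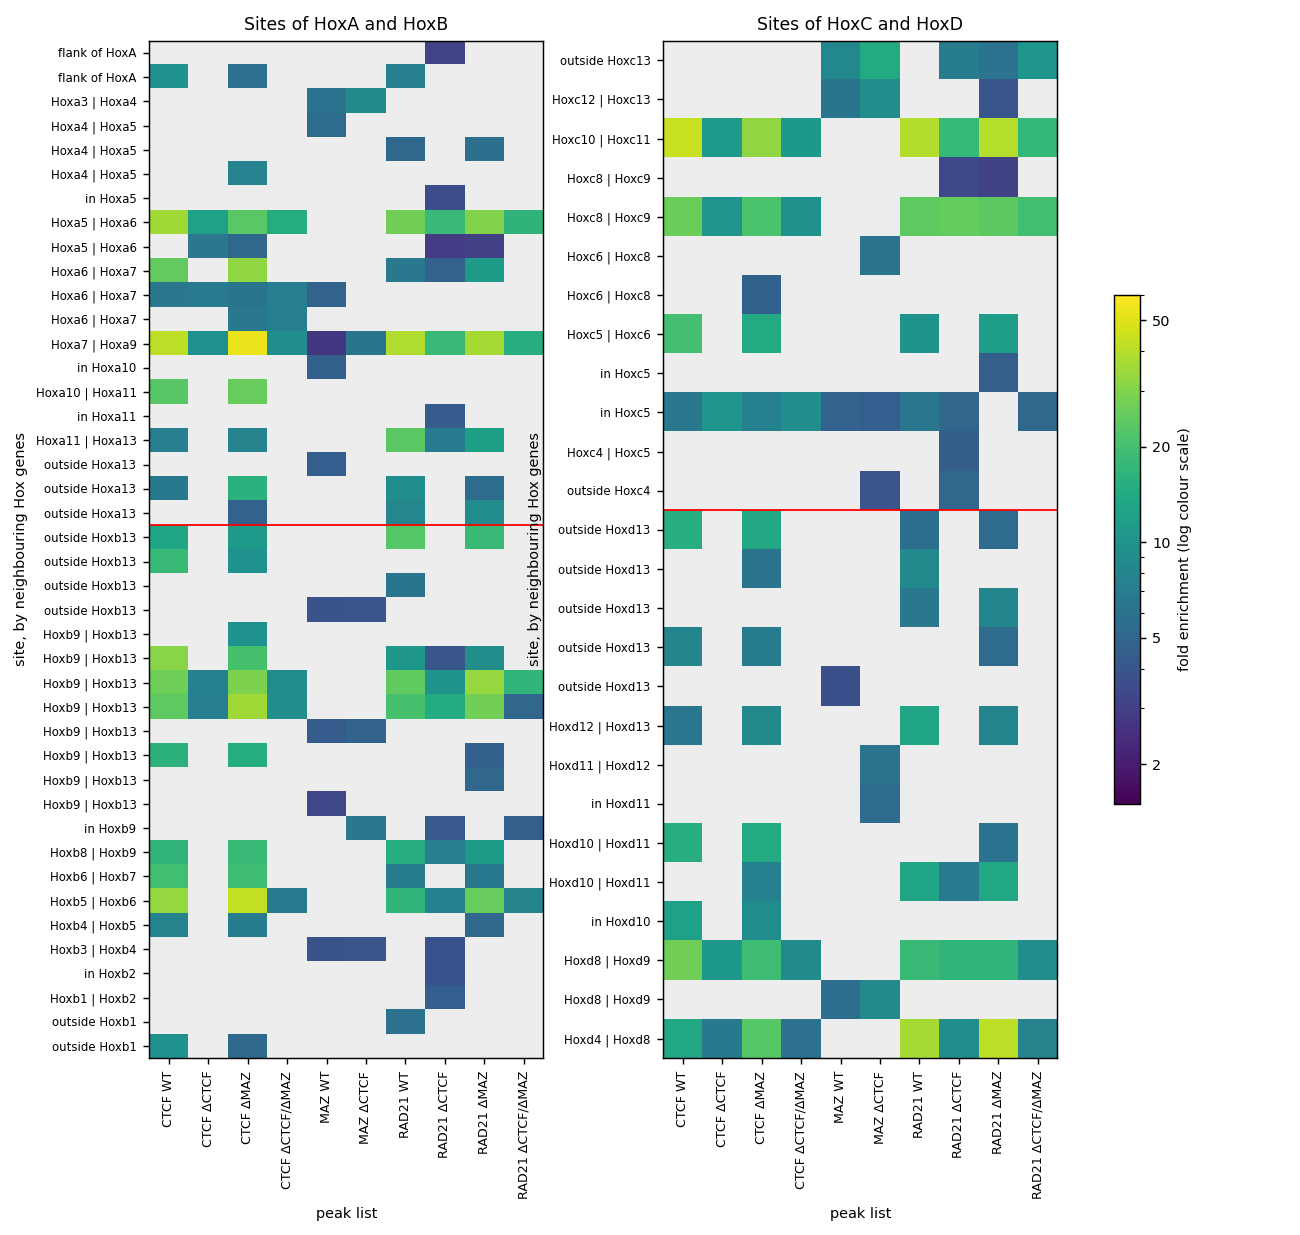
Fold enrichment of the sites in the Hox windows (rows, named by neighbouring Hox genes, in order along the chromosome) in 10 lists (columns), on a log colour scale; light grey means that no peak was called and the red line separates the clusters. In 9 rows all 4 RAD21 columns are filled, in 8 of these 9 all 4 CTCF columns are too, and 8 of the rows drawn have RAD21 in the ΔCTCF column alone.

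The letters of the CTCF core were found at part of the Hox CTCF summits. The core, read as CC, any 3 bases, AG, any 2 bases and GGC on either strand within 50 bp of the summit, was found at 12 of 30 Hox peaks in WT (40%, interval 22.7 to 59.4), against 54.6% of all WT peaks, so that the interval held the share of all peaks. In windows of the same length 1000 bp away it was found beside 2 of the 30 Hox peaks (6.67%) and beside 1.93% of all. In ΔMAZ it was found at 11 of 38 (28.9%, interval 15.4 to 45.9), against 52.6% of all. In ΔCTCF it was found at 1 of 11 Hox peaks (9.09%, interval 0.230 to 41.3), against 53.7% of all, and in both of these conditions the share of all lay outside the interval. In ΔCTCF/ΔMAZ, whose 12 Hox peaks include 10 of those 11, it was found at 3 (25%, interval 5.49 to 57.2), against 56.1% of all, which lay inside the interval. With the wider core, in which the A may be any base and which was chosen after seeing the sequences and is found at 62.6% of all WT peaks and 5.16% of windows beside them, 17 of the 38 Hox sites with CTCF held a match. It was present at 4 of 13 sites called after auxin in either background and at 13 of 25 sites called only without auxin, and at 62.2% of all peaks in ΔCTCF and 65.4% in ΔCTCF/ΔMAZ. The letters GCGCTGTT, any base, then CTC, also picked after the sequences had been seen, occur 3 times in the 4 windows, on either strand, and all 3 are the sites printed above. Within 100 bp of the summit they were found at 16 of 26392 CTCF peaks in WT (0.0606%) and at 5 of 2570 in ΔCTCF/ΔMAZ, and 3 of each are these Hox peaks. In ΔCTCF they were found at 3 of 2381, of which 2 are Hox peaks. A match of letters is a description and does not show what binds there.

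Where the wider core gave an orientation, the side of the RAD21 summits could be read. Of the 17 sites with a match, 14 had RAD21, and relative to the match nearest to a CTCF summit all RAD21 summits lay on the 3′ side at 8 sites, all on the 5′ side at 2 and on both sides at 4. Taken in WT alone, where the strongest RAD21 summit was set against the match nearest to the CTCF summit, 8 of 11 Hox peaks had RAD21 on the 3′ side (72.7%, interval 39.03 to 93.98), against 76.2% of 11332 peaks in all. At Hoxa7|Hoxa9 all 4 RAD21 summits lay 16.5 to 44.5 bp from the middle of the core on its 3′ side, at Hoxd4|Hoxd8 all 4 at 12.5 to 55.5 bp, at Hoxa5|Hoxa6 all 4 at 12.5 to 27.5 bp, and at the Hoxb9|Hoxb13 site nearest to Hoxb13 all 3 at 46.5 to 78.5 bp. Both sites with RAD21 on the 5′ side lay in HoxB: a further Hoxb9|Hoxb13 site, whose single RAD21 summit lay at -24.5 bp, and the Ttll6 intron site, with summits at -22.5 and -15.5 bp, where a second match on the same strand had them at 10.5 and 17.5 bp. Both sides were found at Hoxb5|Hoxb6, at -5.5 to 11.5 bp, at Hoxb8|Hoxb9, at -19.5 to 12.5 bp, at Hoxa6|Hoxa7, at -20.5 to 95.5 bp, and at the Evx2 site, at -75.5 and 19.5 bp. Hoxd12|Hoxd13 had matches on both strands, and its 2 RAD21 summits lay at 23.5 and 58.5 bp from the nearer and on both sides of the other. For MAZ, the core GGGAGGG was found at 5 of 16 Hox summits in WT (31.3%, interval 11.02 to 58.7), against 32.3% of all MAZ peaks. In the windows 1000 bp away it was found beside 3 of the 16 Hox peaks (18.8%, interval 4.05 to 45.6) and beside 5.78% of all. Among the RefSeq promoters (GRCm38.p6, 250 bases before to 50 after the start), 24 Hox genes had an entry, of which 7 held the MAZ core (29.2%, interval 12.6 to 51.1) against 22.0% of all.

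Genes that work with Hox proteins or beside them were read in the same way. Among the TALE homeobox genes, whose products bind DNA together with Hox proteins, Pbx4 and Pknox2 had a CTCF summit in the gene or within 5 kb in all 4 conditions, and RAD21 summits were near 5 of 9 genes in WT and 6 of 9 in ΔCTCF, against the 39.2% and 37.2% of all genes given above. Meis1 and Pbx3 had RAD21 in ΔCTCF and not in WT, and Pknox1 the reverse. Of 5 caudal and ParaHox genes, which act upstream of or beside the Hox clusters, Cdx2 was the 1 with CTCF, MAZ or RAD21 in WT, and none had a summit of any list in ΔCTCF. Of Evx1 and Evx2, Evx2 had CTCF and RAD21 in WT and ΔMAZ and neither after auxin, whereas Evx1 had MAZ in WT and RAD21 in ΔCTCF.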

How the data were processed

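The lists of called peaks for 3 antibodies in 4 conditions of mESCs were analysed, 1 list per group, with samples grouped by their titles. The authors mapped reads to mm10 with Bowtie 2, used SAMtools to take out duplicates, and ran MACS on every library for narrow peaks. The methods name a MACS release older than macs2 together with macs2 defaults, while the deposited columns follow the macs2 layout. Whether an input control was used is not given in the sources used here. The Drosophila spike-in did not enter the lists. The deposited score is 10 times the −log10 q rounded down and was not used. The fold enrichment deposited by the authors is the ratio of pileup to local background with a pseudocount of 1, and the −log10 p and −log10 q that they deposited belong to that peak in that library.

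Whole-number pileups and backgrounds were solved from fold enrichment and −log10 p, which a whole pileup matched within 0.001 for 136043 of 136043 peaks. Starts are those of basic transcripts, and the annotated span of a gene can reach beyond them. The depth index was the lowest background of a list over its smallest peak width. Pileup and background of an uncalled peak were scaled to the lower depth, by this index and by the ratio of backgrounds, and had to pass under both. The pileup solution and the overlaps were tested on simulated data. Peaks were shared when they overlapped by at least 1 bp. Intervals are exact (Clopper-Pearson for shares, Poisson for pileups). No p-value was computed. The members and gene lists were chosen with earlier results of these data known. All 39 genes were counted, sites with RAD21 in any condition or MAZ in WT or ΔCTCF (61 of 69) are given with values, and the others by range. Letters were read from GRCm38 within 50 bp of summits, and the string shared by 3 sites within 100 bp. Alternatives were a −log10 q of at least 5, lists of the same length, a gap of 500 bp, a reciprocal overlap of 50% and other core letters. Python 3.11.15, pandas 2.3.3, scipy 1.17.1 and matplotlib 3.10.9 were used. Some genes and a site named by one of them are not reported here and are not drawn, and 1 gene was left out of the ParaHox list.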

Additional observations from a re-analysis of the deposited data

Results flagged for a closer look

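Both conditions with a single protein lost had a peak at a pair of Hox sites where WT and ΔCTCF/ΔMAZ had none, so that auxin went with a new call in cells with MAZ and with a lost call in cells without it. At Hoxa5|Hoxa6, the site farther from the Hoxa5 start, the CTCF fold enrichment was 6.438 in ΔCTCF and 5.106 in ΔMAZ, and the RAD21 fold enrichment was 2.847 in ΔCTCF and 3.007 in ΔMAZ. At Hoxc8|Hoxc9, beside the strong site, the RAD21 fold enrichment was 3.369 in ΔCTCF and 3.109 in ΔMAZ. The difference was not tested. All 4 RAD21 peaks fell short of the lowest −log10 p of the WT list once scaled to its depth. Of the CTCF peaks at Hoxa5|Hoxa6, that of ΔMAZ would have reached the lowest −log10 p of the WT list and that of ΔCTCF the lower 5% point of the ΔCTCF/ΔMAZ list.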

How the results depend on the processing

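No paired analysis was possible because there was a single list of peaks per group, and leaving out a replicate was not possible for the same reason. Of 83 values recomputed under alternatives, 76 were counted as unmoved. For shares this meant a value inside the 95% interval of the main share. The 30 counts of Hox peaks per list had no interval and were held to a fixed ratio to the main count. All 30 met it, although RAD21 in WT went from 28 to 19 without the flanks. MAZ in ΔCTCF went from 15 to 10 with −log10 q values of at least 5. With lists of the same length, the share of Hox peaks still called was 60% (3 of 5, against 42.5% of all) for CTCF from WT to ΔCTCF, 83.3% (5 of 6, against 51.4%) for CTCF from ΔMAZ to ΔCTCF/ΔMAZ, 90% (9 of 10, against 51.7%) for RAD21 over the same step and 76.9% (10 of 13, against 61.9%) for RAD21 from ΔCTCF to ΔCTCF/ΔMAZ. By construction these lists hold fewer and stronger peaks. With a reciprocal overlap of 50%, 3.57% of Hox RAD21 peaks of ΔCTCF (1 of 28, against 7.25%) overlapped MAZ. The MAZ core was found at 0.0% of 16 Hox MAZ summits of WT with the longer letters GGGGAGGGG (12.04% of all) and at 62.5% with the whole peak searched (57.4% of all). The cause was not tested.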

Other observations

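The Maz knockout had 38 CTCF calls in the Hox windows against 30 in WT, whereas its whole list was shorter, with 26053 peaks against 26394. At 8 sites CTCF was called in ΔMAZ and not in WT, with fold enrichments of 4.72 to 9.69, which is 8 of 38 Hox peaks (21.1%, interval 9.55 to 37.3) against 13.3% of all ΔMAZ peaks. They lay at Hoxa4|Hoxa5, Hoxa5|Hoxa6, Hoxa6|Hoxa7, beyond Hoxa13, at Hoxb9|Hoxb13, Hoxc6|Hoxc8, in Evx2 and at Hoxd10|Hoxd11. All 8 would have reached the lowest −log10 p of the WT list at its depth, and 5 its lower 5% point. At the 30 sites called in both, the median log2 ratio from WT to ΔMAZ was -0.10, against -0.07 for all 22577 shared peaks, and CTCF was higher in ΔMAZ at 12 of the 30.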
